A study of Sus scrofa with 2 samples.

Results

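MT1A (ENSSSCG00000023684) and MT1X (ENSSSCG00000030300) are 2 of the 31908 genes listed in the deposited matrices, and are described here across the cell types of pig skin and across a fresh and a cryopreserved library. They were taken by name and selected on their UMI counts in the cell types of both libraries, so all levels and ratios below are descriptions without a test. Single cells were isolated from the dorsal skin of healthy male farm pigs, which the study calls young without an age in the sources used here. Dead cells were sorted out before droplet scRNA-seq with a 3′ kit, in which each RNA molecule carries a unique molecular identifier (UMI) and is counted once. One library was labelled as fresh and untreated, and the other held cells frozen in fetal bovine serum with DMSO, stored in liquid nitrogen and thawed. The protocol text is the same for each sample and includes a freezing step, although title and treatment mark one sample as fresh. Whether both came from the same animal is not stated in the sources used here. With 1 library per condition there is no replicate check, and the difference between these libraries cannot be told apart from a difference between animals or preparations.

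Metallothioneins are small, cysteine-rich proteins that bind zinc and copper through their thiol groups. They buffer free zinc, take up toxic metals such as cadmium and react with oxidants. Their genes are switched on by zinc through the transcription factor MTF1, which binds metal response elements in their promoters, and glucocorticoids and oxidative stress can raise them too. In skin they are known from the epidermis, mainly its basal layer and hair follicles.

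RefSeq places MT1A on chromosome 6 of Sscrofa11.1, on the plus strand, at positions 18672016 to 18673673, as the last of 7 metallothionein genes that run in the same direction from MT4 (start 18611245) over MT3 (start 18634735). The gene was matched by symbol. It has 3 exons, at 18672016 to 18672093, 18672689 to 18672754 and 18673442 to 18673673. The coding sequence of 186 bases, joined from the 3 exons, is shown because its cysteine codons, in capitals, are what makes the protein a metal binder.

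MT1A coding sequence: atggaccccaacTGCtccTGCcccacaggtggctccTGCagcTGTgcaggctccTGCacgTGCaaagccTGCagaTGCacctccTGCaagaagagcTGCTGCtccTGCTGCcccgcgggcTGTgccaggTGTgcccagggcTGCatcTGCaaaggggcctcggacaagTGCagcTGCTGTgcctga

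Of its 61 amino acid codons, 20 (32.8%) encode cysteine. The coding sequence is 96.8% identical to that of LOC100739663, 93.0% to MT1D and 90.3% to MT-2B, its annotated neighbours. Of the 327 windows of 50 bases along the MT1A transcript, 148 also occur in at least 1 of the 6 other annotated metallothionein transcripts, 115 of them in LOC100739663. In the last 150 bases, nearer to where a 3′ kit reads, 34 of 101 windows are shared in this way. Reads from shared stretches cannot be assigned to MT1A alone, so its UMI count is uncertain. No entry named MT1X was matched in this annotation. The 250 bases before the start of MT1A are shown because the promoter carries the sequence that MTF1 is known to bind. A link between this sequence and the difference between the libraries was not tested. Capitals mark the core of the metal response element, searched on both strands as TGCACNC and TGCGCNC, where N is any base.

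MT1A promoter, chr6:18671766-18672015, plus strand: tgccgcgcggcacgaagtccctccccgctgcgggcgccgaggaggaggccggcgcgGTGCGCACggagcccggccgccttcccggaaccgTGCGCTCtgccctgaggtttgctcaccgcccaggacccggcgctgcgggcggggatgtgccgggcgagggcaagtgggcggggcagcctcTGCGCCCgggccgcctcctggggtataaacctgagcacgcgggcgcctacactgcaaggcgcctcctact

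The core occurred 4 times, at -194, -193, -160 and -70 from the gene start, and the first 2 matches overlap each other on opposite strands. At least 1 match was present in 22.6% of the 25422 promoters of the same length, and at least 4 matches in 0.397% of them. Among the neighbours, MT3 and MT-2B also had 4 matches, MT1D had 3, LOC102166944 had 2, and LOC100739663 and MT4 had 1 each. These are matches of letters, and binding was not measured.

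The matrices hold 53271738 UMIs in 4379 barcodes (fresh) and 42217632 UMIs in 4860 barcodes (cryopreserved), of which 2775 and 4223 cells passed the study's maxima for genes, UMIs and mitochondrial reads. Median depth was 11017 and 7945 UMIs per cell, and 6 barcodes were found in both libraries. Cells were clustered without the metallothionein genes, and 21 of 24 clusters were named as 9 classes from marker genes. Levels are CPM, the UMIs of the gene per 1000000 summed UMIs of a class, scaled with TMM factors, with exceptions listed under processing. All intervals are 95% and cover counting error only. Each UMI stands for 1 molecule, so MT1A and MT1X were compared without dividing by length. The shared stretches of MT1A leave this comparison uncertain, and MT1X was not examined for such stretches.

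Most UMIs of both genes lay in keratinocyte-like cells. Keratinocyte-like cells (530 fresh and 1058 cryopreserved) held 93.0% and 94.0% of all MT1X UMIs and 97.9% and 98.2% of all MT1A UMIs. The same cells held 24.0% and 29.0% of the UMIs of all genes. By UMIs MT1X ranked 12th among all genes in fresh keratinocyte-like cells and 6th in cryopreserved ones. MT1A was far less abundant and ranked 279th and 148th.

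In keratinocyte-like cells MT1X stood at 4970 CPM in the fresh library (4920 to 5020) and at 8902 CPM after cryopreservation (8845 to 8959). MT1A stood at 512 CPM (496 to 528) and 933 CPM (915 to 952). These intervals are narrow because the counts are high, and they do not cover the spread between cells, animals or preparations. MT1X was about an order of magnitude above MT1A in both libraries.

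Endothelial-like cells, which line blood vessels, came next, with 1105 CPM of MT1X when fresh and 2505 CPM when cryopreserved. Among all genes of this class MT1X ranked 103rd (fresh) and 25th (cryopreserved). MT1A was at 34.6 CPM (interval 26.0 to 45.1, 54 UMIs) and 51.3 CPM (39.5 to 65.4, 64 UMIs) there. Lymphatic-like cells, the lining of lymph vessels, had 579 and 1306 CPM of MT1X, about 2 times less than endothelial-like cells in either library. Their MT1A rested on 12 and 19 UMIs, or 14.9 CPM (7.72 to 26.1) and 31.5 CPM (19.0 to 49.2), and its intervals overlap those of endothelial-like cells in both libraries.

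The remaining classes were at least an order of magnitude below keratinocyte-like cells. MT1X was at 97.5 CPM in fresh CD163/CD209 myeloid-like cells (82.6 to 114), 55.1 in Langerhans or other dendritic-like cells (44.3 to 67.8), 50.9 in mast-like cells (27.1 to 87.0) and 33.5 in T or NK-like cells (18.7 to 55.2). The intervals of these last 3 classes overlap, and that of mast-like cells also overlaps the myeloid-like one, so these orders are not resolved. Fibroblast-like cells, the largest class, had 22.7 CPM (20.5 to 25.2) and SMC-like cells, the mural cells of vessels, 13.3 CPM (8.72 to 19.6). Both intervals overlap that of T or NK-like cells. In the cryopreserved library the same classes had 217 CPM of MT1X (myeloid), 51.7 (Langerhans or dendritic), 14.6 (mast), 500 (T or NK), 76.5 (fibroblast) and 25.2 (SMC). A single T or NK-like cell held 77.5% of that class's MT1X UMIs. Without the 1% of cells with most MT1X in each library the T or NK-like level was 29.4 CPM (fresh) and 115 CPM (cryopreserved).

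MT1A was sparse outside keratinocyte-like, endothelial-like and lymphatic-like cells. Its counts, fresh then cryopreserved, were 11 and 12 UMIs in myeloid-like cells, 7 and 53 in fibroblast-like cells, and 2 and 21 in the Langerhans or dendritic class. The fresh myeloid-like level was 7.10 CPM (3.55 to 12.7), an interval that overlaps that of fresh lymphatic-like cells. A single cell held 37.7% of the cryopreserved fibroblast-like UMIs and another 66.7% of those of the Langerhans or dendritic class. No MT1A UMI was found in fresh SMC-like, T or NK-like and mast-like cells, which allows up to 1.54, 6.70 and 11.7 CPM, and these classes had 1, 4 and 1 UMIs in the cryopreserved library.

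**Figure D1:**
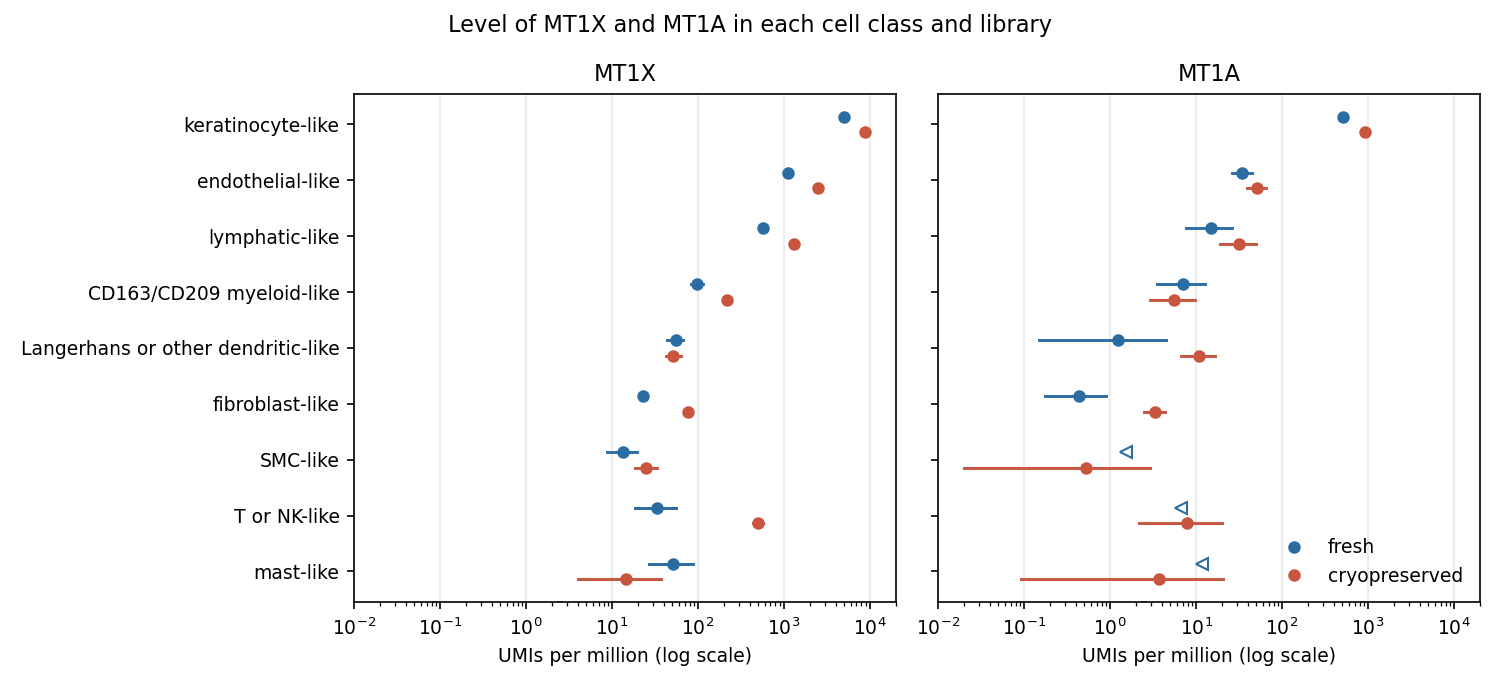
Level of MT1X (left) and MT1A (right) in CPM on a log axis for the 9 named classes, fresh in blue and cryopreserved in red, with 95% counting intervals. Open triangles mark the limit that a count of 0 allows. Keratinocyte-like cells are highest for both genes in both libraries (4970 and 8902 CPM of MT1X, 512 and 933 of MT1A), followed by endothelial-like and lymphatic-like cells.

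Droplets also carry free RNA, which in skin includes that of keratinocytes, so the 4 epidermal keratins KRT5, KRT15, KRT1 and KRT10 were counted in each class as its measure. In keratinocyte-like cells there were 16.3 (fresh) and 31.2 (cryopreserved) MT1X UMIs for each 100 keratin UMIs. In endothelial-like cells there were 3198 and 2651, and in lymphatic-like cells 1134 and 2318, far above the figures of keratinocyte-like cells. In SMC-like cells the figures were 18.8 and 41.0, and in fibroblast-like cells 41.1 and 69.3, much nearer to those of keratinocyte-like cells. Myeloid-like cells had 66.2 and 72.2. The keratins themselves stood at 56.6 and 108 CPM in fibroblast-like cells against 30385 and 28589 CPM in keratinocyte-like cells. The part of free RNA in the MT1X and MT1A values of any class was not tested.

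The libraries were made to set fresh cells beside frozen ones, and with 1 of each the values below describe this pair of libraries. Over all filtered cells MT1X was 2.22 times higher in the cryopreserved library (interval 2.19 to 2.24), at 2793 CPM against 1261 CPM. MT1A was 2.27 times higher (2.19 to 2.36), at 280 CPM against 123 CPM. Both genes were past 2-fold, and of the 11692 genes with at least 200 UMIs 0.753% were at least 2-fold higher and 0.316% at least 2-fold lower in cryopreserved cells, with a median log2 ratio of 0.03. Only 43 of the genes had a higher log2 ratio than MT1A, and 48 a higher one than MT1X. Keratinocyte-like cells made up 19.1% of fresh and 25.1% of cryopreserved cells. With the class shares of the fresh library applied to both, the log2 ratio was 0.92 for MT1A and 0.92 for MT1X, against 1.18 and 1.15, and neither gene was past 2-fold. Of the deposited barcodes 63.4% (fresh) and 86.9% (cryopreserved) passed the maxima, and over all barcodes, passed or not, the log2 ratios were 0.93 for MT1A and 0.94 for MT1X, also short of 2-fold.

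Within keratinocyte-like cells the ratio was alike for both genes, 1.82 for MT1A (1.76 to 1.89) and 1.79 for MT1X (1.77 to 1.81). Neither reached 2-fold, which 0.838% of 7758 genes did upward and 0.219% downward in this class. MT1X was 2.27 times higher in cryopreserved endothelial-like cells (2.14 to 2.41), where 0.903% of 2546 genes were at least 2-fold higher and the median log2 ratio was -0.08. In lymphatic-like cells it was 2.25 times higher (2.01 to 2.53), against 1.3% of 1542 genes and a median of -0.15. One cryopreserved lymphatic-like cell held 16.1% of the class's MT1X UMIs. Without the 1% of cells with most MT1X the levels were 499 and 1003 CPM, without TMM scaling. With TMM scaling the log2 ratio without these cells was 0.98, short of 2-fold. For MT1A the endothelial-like ratio was 1.48, with an interval (1.02 to 2.17) that nearly reaches 1, and the lymphatic-like interval (0.971 to 4.76) includes 1.

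Of the 9 classes, 7 had more MT1X in the cryopreserved library, and the interval of the ratio lay above 1 in each of these 7. The keratins, counted above for free RNA, were also higher in several of these, as in fibroblast-like cells. They stood at 34.4 and 94.9 CPM in endothelial-like, 153 and 289 in myeloid-like and 51.6 and 110 in T or NK-like cells. They were at 50.7 and 56.8 CPM in lymphatic-like cells, and lower in SMC-like (71.7 and 60.7) and keratinocyte-like cells. The part of free RNA in these ratios was not tested. In CD163/CD209 myeloid-like cells MT1X was 2.22 times higher (1.84 to 2.69), but the clusters of this class differed. The larger one had a ratio of 3.16 (2.55 to 3.93). The smaller one, of 14 fresh and 44 cryopreserved cells, had 0.347 (0.213 to 0.562), with 93.0% of its fresh UMIs in 1 cell. That cell held 26.5% of the fresh UMIs of the class. Without the 1% of cells with most MT1X the myeloid-like log2 ratio was 1.60 against 1.15. In SMC-like cells MT1X was 1.89 times higher (1.15 to 3.17) on 26 and 48 UMIs. With 20 dimensions in the clustering instead of 30 the SMC-like log2 ratio was 2.40 against 0.92. In fibroblast-like cells it was 3.37 times higher (2.99 to 3.79), but 5 cells held 36.8% of the cryopreserved UMIs, and without the 1% of cells with most MT1X the levels were 13.2 and 27.9 CPM. In Langerhans or other dendritic-like cells the MT1X ratio was 0.938, with an interval (0.698 to 1.26) that includes 1. In T or NK-like cells it was 14.9 (8.89 to 27.1), with most of the UMIs in the single cell named above. Mast-like cells had 13 fresh UMIs, all in 1 cell, and 4 cryopreserved UMIs. MT1A could be compared in 6 of 9 classes, since SMC-like, T or NK-like and mast-like cells had 0 fresh UMIs. In fibroblast-like cells its log2 ratio was 2.93, but 0.80 without the 6% of cells with the highest Scrublet scores, and no UMI was left in either library without the 1% of cells with most MT1A. In Langerhans or dendritic-like cells it rested on 2 and 21 UMIs, most of the latter in 1 cell, and in myeloid-like cells the ratio was 0.783 (0.316 to 1.96).

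**Figure D2:**
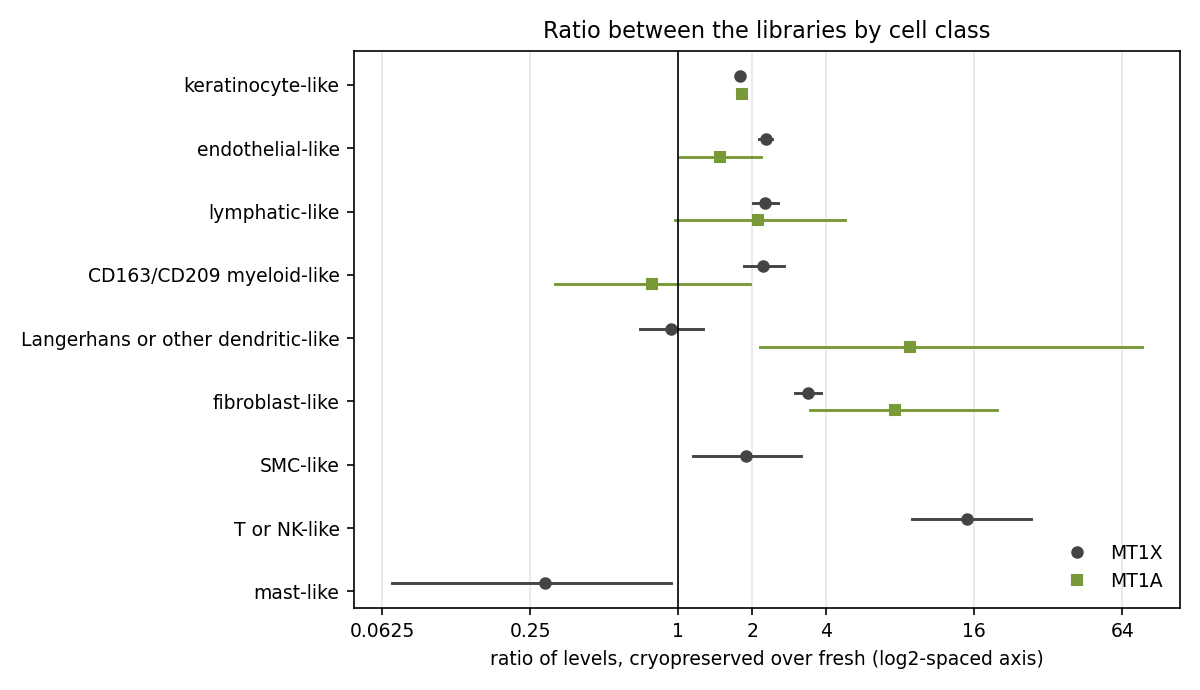
Ratio of the level in the cryopreserved library over that in the fresh library for MT1X (circles) and MT1A (squares) by class, on a log2-spaced axis with 95% counting intervals. MT1A is not drawn in SMC-like, T or NK-like and mast-like cells, which had no fresh UMI. MT1X lies between 1.79 and 2.27 in keratinocyte-like, endothelial-like, lymphatic-like, myeloid-like and SMC-like cells, and below 1 in Langerhans or dendritic-like and mast-like cells. The SMC-like log2 ratio was 2.40 with 20 dimensions in the clustering.

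Keratinocyte-like cells fell into 5 clusters, and the genes were spread over all of them. The cluster names are short labels. PTHLH and SOX9 were not among the genes most raised in the cluster labelled with them, nor was a named mitosis gene in the one labelled dividing. Basal keratinocyte markers were the highest list for both and for the KRT15-rich cluster. Differentiated keratinocyte markers were the highest for the KRT1/KRT10 and the CCL27/SERPINB2 cluster, which also had KRT1 among its most raised genes. MT1X was highest among fresh cells in the cluster with CCL27, a skin-homing chemokine, and SERPINB2, at 6760 CPM. It was at 4058 CPM in the KRT15-rich basal cluster, 3997 in the cluster with PTHLH and SOX9, 3483 in the suprabasal cluster with KRT1 and KRT10, and 3229 in the dividing cluster. The cryopreserved values were 10501, 7535, 9194, 5915 and 10920 CPM in the same order of clusters. Every cluster was higher in the cryopreserved library, from 1.55 times (CCL27/SERPINB2) to 3.38 times (dividing, 23 fresh and 72 cryopreserved cells).

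MT1A followed another order. It was highest in the suprabasal KRT1/KRT10 cluster in both libraries, at 617 CPM in fresh (577 to 660) and 1213 CPM in cryopreserved cells (1163 to 1265). The CCL27/SERPINB2 cluster, richest in MT1X among fresh cells, had 533 and 934 CPM of MT1A. The PTHLH/SOX9 cluster had 494 and 821 CPM, the KRT15-rich cluster 448 and 859 CPM, and the dividing cluster 256 and 833 CPM. In each cluster the level of MT1A was thus at least 1.66 times higher in the cryopreserved library, and 3.25 times in the dividing one.

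The share of MT1A in the UMIs of both genes does not depend on depth or on the scaling between libraries. In keratinocyte-like cells it was 9.34% in the fresh (9.06 to 9.62) and 9.49% in the cryopreserved library (9.31 to 9.67), so that the balance of the 2 genes was nearly the same in both. The KRT1/KRT10 cluster stood apart with 15.1% (14.1 to 16.0) and 17.0% (16.4 to 17.7), and the CCL27/SERPINB2 cluster had 7.31% and 8.17%. The PTHLH/SOX9 cluster went from 11.0% (10.2 to 11.8) in the fresh to 8.20% (7.83 to 8.57) in the cryopreserved library. In endothelial-like cells the share was 3.03% (2.29 to 3.94) and 2.01% (1.55 to 2.55), and in lymphatic-like cells 2.52% and 2.35%. The vessel linings thus had a lower share of MT1A than keratinocyte-like cells in both libraries, with intervals that do not overlap.

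**Figure D3:**
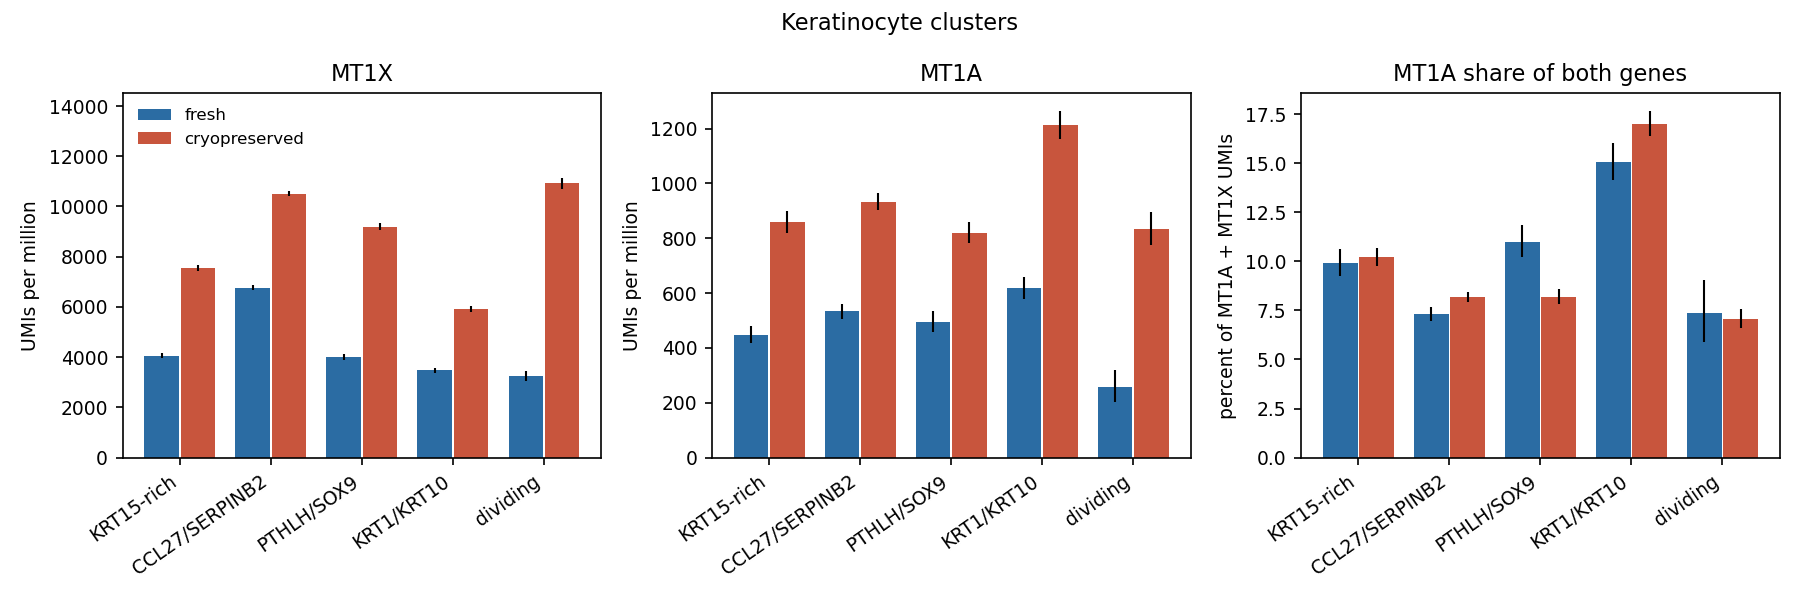
MT1X level, MT1A level (both in CPM) and the share of MT1A in the UMIs of both genes (percent) in the 5 keratinocyte-like clusters, fresh in blue and cryopreserved in red, with 95% counting intervals. The KRT1/KRT10 cluster is highest for MT1A (617 and 1213 CPM) and for its share (15.1% and 17.0%), and lowest of the cryopreserved clusters for MT1X (5915 CPM).

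MT1X varied widely between cells of a class. In fresh keratinocyte-like cells the median was 3647 CPM of the cell's own total, with 412 at the 10th and 10732 at the 90th percentile. In cryopreserved cells the values were 6600, 1323 and 19877, so that low, middle and high cells were all higher. MT1X was detected (at least 1 UMI) in 95.3% of the fresh keratinocyte-like cells and 98.7% of the cryopreserved ones, and after thinning each cell to 1000 UMIs, which left out 3 and 9 cells, in 82.4% and 92.3%. For MT1A the shares were 73.2% and 81.6%, and 31.5% and 46.2% after thinning. In endothelial-like cells 68.7% and 74.8% had an MT1X UMI, and 42.6% and 58.3% after thinning. Lymphatic-like cells had one in 60.7% and 54.1% of cells, at a median depth of 6699 and 3780 UMIs, and in 29.0% and 36.1% after thinning. Fibroblast-like cells had an MT1X UMI in 12.7% and 14.5% of cells, and in 1.97% and 3.76% after thinning, while 6.02% and 7.17% of the thinned cells had a UMI of the 4 keratins. Median depth was 14857 and 9697 UMIs in keratinocyte-like cells, 6531 and 3958 in endothelial-like cells and 12659 and 9967 in fibroblast-like cells.

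**Figure D4:**
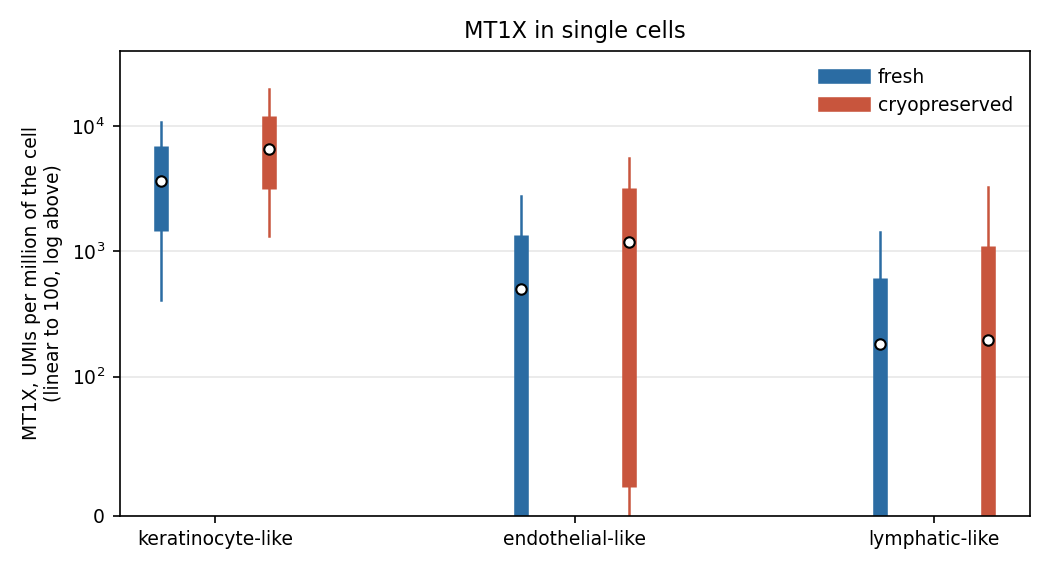
MT1X in single cells, in CPM of each cell's total, on an axis that is linear up to 100 and logarithmic above, for 3 classes and both libraries. Circles are medians, thick bars the middle 50% of cells and thin lines the 10th to 90th percentile. The keratinocyte-like median is 3647 for fresh and 6600 for cryopreserved cells, while in lymphatic-like cells the medians are 180 and 195 and the 90th percentiles 1419 and 3240.

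Within keratinocyte-like cells the 2 genes went together. Pearson's r of their log2 values was 0.53 over 530 fresh cells and 0.46 over 1058 cryopreserved cells, which share a library and its free RNA. MT3, another metallothionein, was the gene most like MT1X there, with r of 0.82 and 0.77, followed by MT1A, the ribosomal protein gene RPLP2 (0.55 and 0.36), ENSSSCG00000039460 and RPL35. For MT1A the most alike were MT1X, MT3 (0.49 and 0.43), ENSSSCG00000039460, ENSSSCG00000037879 and RPS29. In endothelial-like cells MT1X went with MT3 (0.66 and 0.65), the cytokine gene IL6 (0.53 and 0.48), ENSSSCG00000006286, ACKR1 (0.47 and 0.43), the chemokine receptor of venules, and CEBPD (0.56 and 0.41). Endothelial-like cells with an ACKR1 UMI, a split chosen after these values were seen, had 1790 CPM of MT1X in 77 fresh cells and 3765 CPM in 106 cryopreserved cells. Those without had 580 and 1403 CPM, at a median depth of 6409 and 3194 UMIs against 6781 and 5133. ACKR1 was taken from the genes most like MT1X in these same cells, so the direction of this difference was fixed by the choice. In fibroblast-like cells, where MT1X is sparse, the most alike gene was S100A4 (0.27 and 0.19), and MT1A, found in 0.826% of these cells, had values of 0.07 in both libraries with its most alike gene, ENSSSCG00000040968.

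Across the 18 profiles of 9 classes in 2 libraries, r of log2(CPM + 1) between MT1A and MT1X was 0.92. Over 11692 genes MT1X was most like MT3 (0.96), PALMD (0.93), MT1A, BAIAP2L1 (0.90) and EDN1, the endothelin precursor of keratinocytes and endothelium (0.89). MT1A was most like MT1X, the potassium channel genes KCNJ15 (0.91) and KCNK7 (0.88), ENDOU (0.88) and MT3 (0.87). The profiles come from 2 libraries, so classes of the same library share its depth and free RNA. Each class enters once per library. MT1A rested on few UMIs in most profiles outside keratinocyte-like cells, and on 0 in fresh SMC-like, T or NK-like and mast-like cells. These r values thus largely set classes rich in the genes against classes with few UMIs of them.

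The other metallothioneins that could be found by name, MT3 and MT4, were examined for the same pattern. Of 13 genes listed as other metallothioneins or MTF genes, 4 were found by name (MT3, MT4, MTF1 and MTF2), and none was past 2-fold over all cells. The neighbours MT-2B and MT1D were listed but not found, and LOC100739663 and LOC102166944 were not listed. No level is therefore given under the names of these neighbours of MT1A. Whether MT1X is one of them under another name was not examined. In keratinocyte-like cells MT3 was at 563 CPM (fresh) and 725 CPM (cryopreserved), a log2 ratio of 0.37 (0.31 to 0.42) against 0.84 (0.82 to 0.86) for MT1X and 0.87 (0.81 to 0.92) for MT1A. In endothelial-like cells its log2 ratio was 0.95 (0.67 to 1.22), against 1.18 (1.10 to 1.27) for MT1X. MT4, the metallothionein of differentiating squamous epithelium, was at 197 and 178 CPM in keratinocyte-like cells, a log2 ratio of -0.14 (-0.24 to -0.04). It was at 748 and 708 CPM in the KRT1/KRT10 cluster, and outside keratinocyte-like cells only 7 fresh and 11 cryopreserved UMIs were counted. MTF1, which senses zinc and drives metallothionein genes, was low, at 15.9 and 15.7 CPM in keratinocyte-like cells, a log2 ratio of -0.02 (-0.36 to 0.33). MTF2, a Polycomb-associated protein despite its name, was at 71.5 and 67.7 CPM. SLC30A1, the zinc exporter that is also an MTF1 target, was named after its values were seen and was at 28.5 and 26.4 CPM, a log2 ratio of -0.11 (-0.37 to 0.15).

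**Figure D5:**
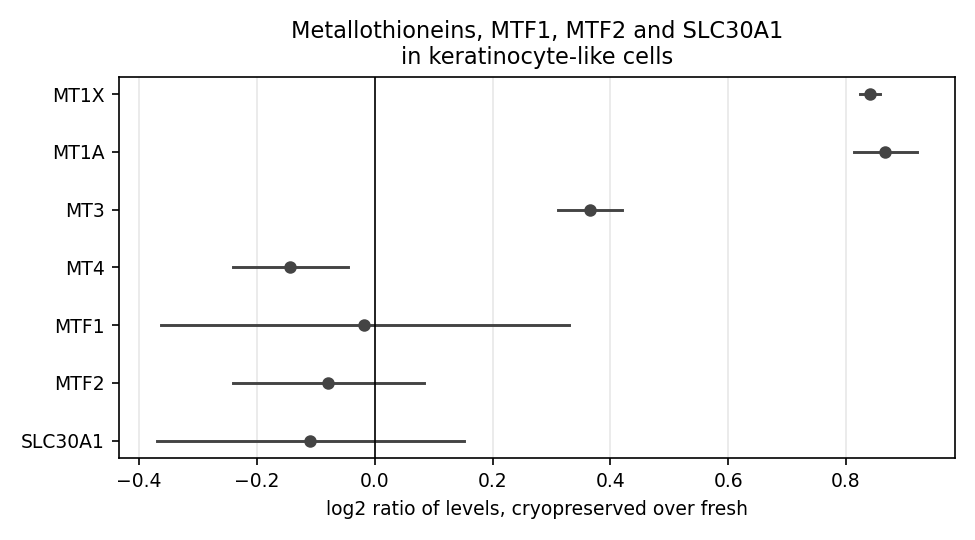
Log2 ratio of levels, cryopreserved over fresh, in keratinocyte-like cells for the 4 metallothioneins listed by name, MTF1, MTF2 and SLC30A1, with 95% counting intervals. MT1X (0.84) and MT1A (0.87) lie above MT3 (0.37), and MT4 lies below 0 (-0.14).

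Genes of metal handling and of the other known inducers were counted over all cells, where the median log2 ratio of all genes was 0.03, with 0.753% of genes at least 2-fold higher and 0.316% at least 2-fold lower. With lists of 7 to 16 genes, 1 gene is already a larger share than that, so a single gene past 2-fold is given as a value only. Of 24 zinc transporter genes listed, 22 were found and 16 had at least 200 UMIs, and of these 1 was at least 2-fold higher and 0 lower, with a median of 0.01. The 1 was SLC30A2, at 2.72 and 5.52 CPM, and SLC39A1 was at 45.3 and 62.0 CPM. The lowest were the zinc importer SLC39A14 (354 and 305 CPM) and SLC30A7 (91.4 and 79.8 CPM). No gene of 7 for copper handling was past 2-fold (median 0.11), from ATP7A (7.83 and 7.60 CPM) and the importer SLC31A1 (43.2 and 42.2 CPM) to SLC31A2 (3.64 and 4.72 CPM) and the copper chaperone COX17 (32.7 and 43.7 CPM). Of 7 iron genes 1 was, heme oxygenase HMOX1, at 55.5 and 111 CPM, and the median was 0.02. The ferritin light chain FTL was at 1068 and 1608 CPM, ACO1 at 48.3 and 47.1 CPM and the iron exporter SLC40A1 at 16.0 and 12.9 CPM.

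Of 13 targets of NRF2, the factor of the oxidative stress response, HMOX1 was at least 2-fold higher and ME1 at least 2-fold lower (9.42 and 4.70 CPM), with a median of 0.31, beside the 0.753% and 0.316% of all genes. OSGIN1 was at 23.6 and 36.4 CPM and GCLC, of glutathione synthesis, at 64.3 and 50.2 CPM. None of 10 glucocorticoid-responsive genes was past 2-fold (median 0.06), with CEBPD (804 and 1139 CPM) and DUSP1 (875 and 1115 CPM) highest in ratio and ERRFI1 (433 and 275 CPM) and ZBTB16 (155 and 102 CPM) lowest. Of 7 immediate early genes only JUNB was past 2-fold, at 10.9 and 23.9 CPM (median 0.28). EGR1 was at 340 and 425 CPM, FOSB at 494 and 535 CPM and NR4A1 at 264 and 261 CPM. None of 7 heat shock genes was (median 0.07), from HSPH1 (399 and 299 CPM) and HSPB1 (468 and 440 CPM) to DNAJB1 (314 and 391 CPM) and HSPE1 (176 and 245 CPM). In keratinocyte-like cells, where MT1A and MT1X are concentrated, no listed gene with at least 200 UMIs was past 2-fold. The longest list had 14 such genes there. Of all 7758 such genes in the class, 0.838% were at least 2-fold higher and 0.219% at least 2-fold lower. JUNB was at 12.7 and 25.1 CPM there, and HMOX1, with 24 and 62 UMIs, at 3.11 and 5.81 CPM. In endothelial-like cells no listed gene with at least 200 UMIs was past 2-fold either. No list had more than 9 such genes there, and 0.903% of all 2546 such genes were at least 2-fold higher. At such low shares, lists this short can hold no gene past 2-fold without differing from all genes.

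In lymphatic-like cells 2 listed genes were past 2-fold. The class level of MT1X was 2.25 times higher there, with 42.9% of its cryopreserved UMIs in 5 cells and medians over cells of 180 and 195 CPM. The median log2 ratio was 0.25 for 8 glucocorticoid-responsive genes with at least 200 UMIs there and 0.76 for 6 immediate early genes. In keratinocyte-like cells these medians were -0.01 and 0.22, and in endothelial-like cells 0.14 and 0.19. A link of these genes to MT1X was not tested. The median over all 1542 genes of the lymphatic-like class was -0.15, and 1.3% of them were at least 2-fold higher. The 2 past 2-fold were DUSP1 (732 and 1665 CPM) and, named after its values were seen, ATF3 (578 and 1347 CPM), 1 from each list in that order. ZBTB16 had the lowest ratio of the glucocorticoid-responsive genes there, at 220 and 143 CPM.

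Barcodes beyond the study's maxima also held MT1X. Above the mitochondrial maximum, 1004 fresh barcodes had 482 CPM of MT1X (454 to 512) and 446 cryopreserved barcodes had 3662 CPM (3540 to 3787), without TMM scaling. Per 100 keratin UMIs this was 18.9 and 112, and the median depth was 1312 and 1375 UMIs. MT1A was at 84.7 and 263 CPM in them. Above the gene or UMI maximum only, MT1X was at 2010 CPM in 600 fresh and 3649 CPM in 191 cryopreserved barcodes. Within keratinocyte-like cells, fresh cells below the median mitochondrial share had 4631 CPM of MT1X and those above it 5386 CPM, and cryopreserved cells had 7719 and 10775 CPM. Both cryopreserved values lie above both fresh values. Over single cells r of MT1X with mitochondrial share was -0.15 (fresh) and 0.08 (cryopreserved). MT1A was at 473 CPM below and 559 above the median in fresh cells, and at 963 and 893 CPM in cryopreserved ones. In endothelial-like cells MT1X was at 1140 CPM below and 1039 above their median (fresh), and at 2794 and 2013 CPM (cryopreserved).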

How the data were processed

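Cells of 1 fresh and 1 cryopreserved library were analysed. Per the submitters' notes the authors mapped reads to Sscrofa11.1 (Cell Ranger 4.0.0, STAR 2.5.1b) and deposited raw UMI counts per gene and barcode, without normalization. Here barcodes with more than 4500 genes, 30000 UMIs or 10% of UMIs on the 13 mitochondrial protein genes were left out. Libraries were integrated with Seurat 5.3.0 (1996 features, MT1A, MT1X, MT3 and MT4 left out, 30 dimensions, resolution 0.8). A cluster was named after its highest list when at least 3 markers were in 10% of its cells and 2-fold above the median cluster. That reference and joining both keratinocyte lists were chosen after seeing the clusters. The short labels of the single keratinocyte-like clusters were not given by this rule. Scrublet marked 3 fresh and 35 cryopreserved cells, too few to rely on, and doublets were not removed. Counts were summed by class and scaled with edgeR 4.0.16 TMM factors. Levels without the 1% of top cells, of the keratins and in the ACKR1 split were not scaled. Neither were levels by mitochondrial share, in single cells and in barcodes beyond the maxima. Intervals are exact Poisson (levels), exact binomial (shares) and exact conditional binomial (ratios), all at 95%, and a count of 0 allows 3 counts per library. No test was run. The scripts were tested on simulated data. MT1A, MT1X and all lists were chosen with earlier results of these data known. Named genes are every metallothionein or MTF gene found, the 2 highest and 2 lowest by log2 ratio in the other lists, and the 5 most alike by profile and by cell in the largest class. The likeness over keratinocyte-like and endothelial-like cells, the keratin counts, SLC30A1, ATF3 and the ACKR1 split were added after seeing the data.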

Additional observations from a re-analysis of the deposited data

Results flagged for a closer look

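MT1X in mast-like cells went the other way from 7 classes in which it was higher in the cryopreserved library, with a log2 ratio of -1.80. The difference was not tested. It rests on 13 fresh UMIs, all in 1 of 68 cells, and on 4 UMIs in 82 cryopreserved cells.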

How the results depend on the processing

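The log2 ratio of MT1X over all cells, 1.15, was 1.11 with total UMIs, 1.11 without mitochondrial genes in the total, 1.22 with no mitochondrial maximum, 0.94 over all deposited barcodes, 1.23 as a mean of per-cell values, 1.22 without the 1% of cells with most MT1X and 0.92 with the class shares of the fresh library. That of MT1A, 1.18, was 0.93 over all barcodes, 1.30 without its top 1% of cells and 0.92 with the fresh class shares. In keratinocyte-like cells the range over all alternatives was 0.83 to 0.85 for MT1X and 0.85 to 0.90 for MT1A, and in endothelial-like cells 1.16 to 1.25 for MT1X. The number of classes lower in the cryopreserved library was 1 for MT1A and 0 without its top 1% of cells. For MT1X it was 2, and 0 without its top 1% of cells, 1 without the 6% of cells with the highest Scrublet scores, 1 with 20 dimensions and 1 without integration. Genes past 2-fold numbered 125 with at least 200 UMIs and 2409 with at least 1 UMI in each library. The median over cells gave no value, being 0. Among single classes, the log2 ratio ranged from 1.64 to 4.08 for MT1X in T or NK-like cells, 0.88 to 2.40 in SMC-like and 1.15 to 1.75 in fibroblast-like cells, and from 0.80 to 2.93 for MT1A in fibroblast-like cells. It crossed 0 for MT1X in Langerhans or dendritic-like cells (-0.09 to 0.36) and for MT1A in myeloid-like cells (-0.47 to 0.10). No paired analysis was possible because each condition has 1 library. Low counts limit what can be said of MT1A outside keratinocyte-like cells, where most classes had under 25 UMIs of it per library.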
